A study of Mus musculus with 12 samples.

Results

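The genes described here encode the conjugating enzymes of phase II metabolism: the glutathione S-transferases (GST, with the membrane-bound MGST), the UDP-glucuronosyltransferases (UGT) and the cytosolic sulfotransferases (SULT). They were picked by gene symbol in the probe annotation of the array, but the set was chosen with earlier results of these data known. Each gene was represented by its probe set with the highest mean in the tissue. This gave 46 genes out of 18193 with a probe set of their own, namely 23 GST and MGST genes, 10 UGT genes and 13 SULT genes. Liver and quadriceps muscle came from 4-week-old C57BL/6 offspring of dams kept during pregnancy on a normal protein diet (20% casein). The NP+tau dams had received 1% taurine in the drinking water from day 1 of pregnancy, whereas the NP dams had received water alone. Each group had 3 pups, each from a different dam, and per the methods of the study each animal gave both tissues, which gave 12 Affymetrix mouse arrays. The comparison asks whether taurine given to the pregnant dam left a mark on gene expression that could still be read in the weaned offspring.

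GST enzymes add glutathione to reactive electrophiles, UGT enzymes add glucuronic acid from UDP-glucuronic acid, and SULT enzymes add sulfate from the donor PAPS. The added group makes bilirubin, steroids, bile acids and drugs more water soluble, so that transporters can export them into bile or urine. The liver is the main site of all 3 reactions, and several mouse members differ between male and female livers.

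None of the members passed the test in either tissue. With limma and Benjamini-Hochberg adjustment over all 29274 probe sets kept in a tissue, 0 of 41 members kept in liver and 0 of 20 kept in muscle had an adjusted p under 0.05, where 0% of all probe sets passed in either tissue. The lowest adjusted p of a member was 0.718 in liver and 0.707 in muscle. At an unadjusted p under 0.05, 3 of 41 members had a positive and 2 a negative difference in liver, where 0.7% of probe sets had a positive and 3.99% a negative one. In muscle 1 of 20 members had a positive and 0 a negative difference at that p, against 3.72% and 2.4% of probe sets. With 3 samples against 3, an exact permutation test cannot go below a p of 0.1, so the values of single genes below are given as measurements. All differences are the NP+tau mean minus the NP mean of the deposited log2 values, with their SE from limma. A probe set counted as kept if the highest of its 6 values reached 4.60 in liver or 4.49 in muscle.

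In liver, the genes with the most distinct values were Mgst2, Gstm2, Gstm5, Ugt2b5 and Gstk1, and in muscle Gstp1. The 250 bases before the RefSeq start of all of these but Gstk1 follow, with that of Ugt2a3 from the same cluster as Ugt2b5, so that genes of a cluster can be read side by side. They are from RefSeq on GRCm38.p6, each 5′ to 3′ on the strand of its gene. The windows are chr3:51660929-51661178 (plus strand) for Mgst2, chr3:107986421-107986670 (minus) for Gstm2, chr3:107895604-107895853 (plus) for Gstm5, chr5:87140341-87140590 (minus) for Ugt2b5, chr5:87337196-87337445 (minus) for Ugt2a3 and chr19:4037913-4038162 (minus) for Gstp1. Capitals mark matches to the 4 motifs searched.
Mgst2: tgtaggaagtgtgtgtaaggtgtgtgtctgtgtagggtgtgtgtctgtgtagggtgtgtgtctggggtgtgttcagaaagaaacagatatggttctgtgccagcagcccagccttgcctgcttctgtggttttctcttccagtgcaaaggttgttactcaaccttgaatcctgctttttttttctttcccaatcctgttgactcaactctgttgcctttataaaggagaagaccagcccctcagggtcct
Gstm2: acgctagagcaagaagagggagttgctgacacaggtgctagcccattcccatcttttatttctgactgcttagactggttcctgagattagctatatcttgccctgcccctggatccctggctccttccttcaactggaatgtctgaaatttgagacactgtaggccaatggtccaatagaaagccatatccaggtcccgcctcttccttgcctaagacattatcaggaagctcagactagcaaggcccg
Gstm5: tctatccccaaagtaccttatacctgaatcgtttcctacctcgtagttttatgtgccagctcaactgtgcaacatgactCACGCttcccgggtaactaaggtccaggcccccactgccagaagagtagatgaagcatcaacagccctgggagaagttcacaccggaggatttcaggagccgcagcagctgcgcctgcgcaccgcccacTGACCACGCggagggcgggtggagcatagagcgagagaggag
Ugt2b5: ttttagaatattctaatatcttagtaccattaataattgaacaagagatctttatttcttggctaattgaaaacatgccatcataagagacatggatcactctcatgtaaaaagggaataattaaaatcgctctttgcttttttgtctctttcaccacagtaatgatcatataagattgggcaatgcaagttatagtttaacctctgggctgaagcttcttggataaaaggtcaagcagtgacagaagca
Ugt2a3: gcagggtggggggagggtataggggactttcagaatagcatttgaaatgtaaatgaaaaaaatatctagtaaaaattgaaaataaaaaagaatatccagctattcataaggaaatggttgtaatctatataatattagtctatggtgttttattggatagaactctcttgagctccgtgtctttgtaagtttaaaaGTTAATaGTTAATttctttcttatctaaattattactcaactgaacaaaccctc
Gstp1: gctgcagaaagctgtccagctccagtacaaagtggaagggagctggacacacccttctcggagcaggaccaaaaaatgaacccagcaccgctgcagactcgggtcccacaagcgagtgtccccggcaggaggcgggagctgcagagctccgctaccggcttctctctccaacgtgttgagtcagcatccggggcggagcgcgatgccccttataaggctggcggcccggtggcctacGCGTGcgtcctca

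The motifs were searched on both strands in the same window of 41 of the 46 members, the ones that matched the table. The antioxidant response element TGACNNNGC, read by Nrf2, was in 3 of 41 member windows (7.32%: Gsta3, Gstm5 and Mgst1), against 10.1% of 27025 windows of all genes. The core of the xenobiotic response element GCGTG, read by the aryl hydrocarbon receptor, was in 7 (17.1%) against 28.2%. The half-site GTTAAT of the liver factor HNF1 was in 5 (12.2%: Gsta3, Sult1a1, Sult1d1, Ugt2a3 and Ugt3a1) against 6.52%, and CAAAGTCCA of HNF4 was in 0 against 0.381%. In the Gstm5 window the antioxidant match overlaps one of the xenobiotic matches on the other strand, and the Ugt2a3 window has a pair of HNF1 half-sites next to each other. The windows of Mgst2, Gstm2 and Ugt2b5 hold none of the letters searched.

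Some of the arrays and pups stood apart. The liver array of NP+tau replicate 1 was compressed, with an interquartile range of kept probe sets of 2.13 against 2.76 to 2.90 in the other 5 livers, and it held the lowest of the 6 values for 43% and the highest for 28.7% of probe sets. The liver of NP replicate 1 had mean levels of the hepatocyte markers of 11.92, against 12.29 to 12.94 in the other 5 livers, of the neutrophil markers of 8.38 against 5.05 to 6.33, and of the macrophage markers of 9.66 against 7.17 to 8.78. The methods state that each group held pups of both sexes, but Xist was at 11.6 to 11.8 in all 3 NP livers, while in NP+tau livers it was at 11.1, 5.96 and 5.07. Eif2s3y, from the Y chromosome, mirrored this with 3.78, 8.55 and 8.57 in NP+tau livers and 3.58 to 3.64 in NP livers, and the muscles of both groups had the same pattern. Sex therefore cannot be told apart from taurine in 2 of the 3 NP+tau pups. Hepatocyte markers such as albumin were abundant in every liver and muscle fibre markers in every muscle (means of 13.93 to 14.14). In tissue pieces, fewer cells of a type and less RNA per cell cannot be told apart.

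Microsomal GST 2, an enzyme of membranes that joins glutathione to leukotriene A4 as well as to foreign compounds, had the lowest unadjusted p of all members in liver. Mgst2 measured 4.27, 4.56 and 4.68 in NP+tau livers and 6.20, 5.53 and 5.33 in NP livers. The groups did not overlap, and 2 of the 3 NP+tau livers lay below the limit set for dim probe sets, so the NP+tau level is close to a bound. The difference was −1.19 (SE 0.27, unadjusted p = 0.00299 and adjusted p = 0.718 by limma). It was −0.93 without NP replicate 1 and −0.81 with both replicate 1 livers left out. Macrophage markers had the same direction, with mean levels of 7.17 to 8.04 in NP+tau livers and 8.47 to 9.66 in NP livers, and 18 of 18 of them had a negative difference. The markers of stellate cells and fibroblasts also did not overlap, with means of 7.47 to 7.79 in NP+tau livers and 8.10 to 8.90 in NP livers, and 8 of 10 of them had a negative difference. Nor did those of neutrophils, with means of 5.05 to 5.58 in NP+tau livers and 6.01 to 8.38 in NP livers and 11 of 13 negative, or of erythroid cells, with 5.89 to 6.45 in NP+tau livers and 6.67 to 7.19 in NP livers and 2 of 3 negative. The part of these cells in the Mgst2 difference was not tested.

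**Figure D1:**
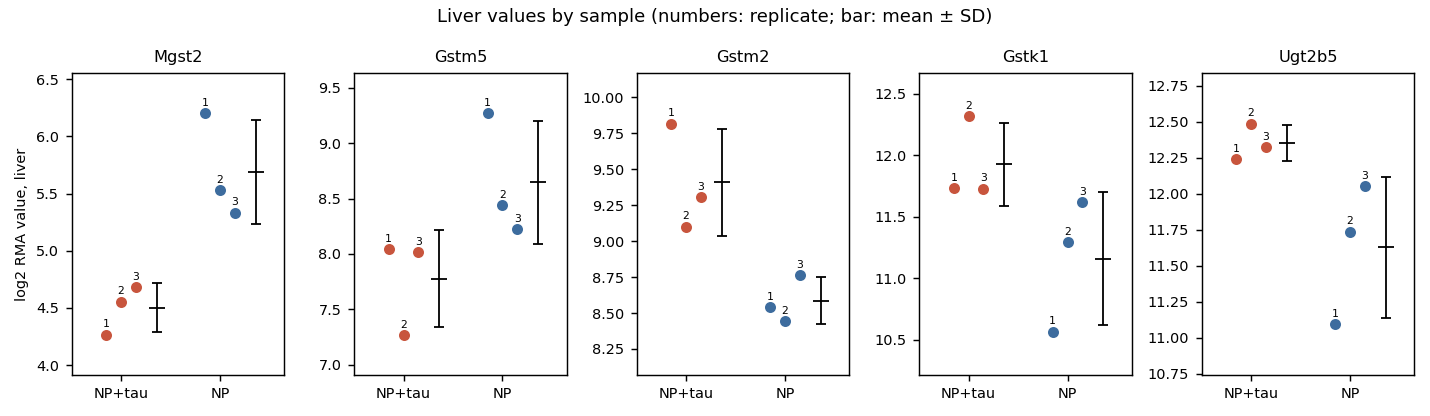
Log2 RMA values (vertical axis, its range differs between panels) of the 5 members with an unadjusted p under 0.05 in liver, NP+tau left and NP right, with each point numbered by replicate and the bar at mean ± SD (n = 3). Mgst2 and Gstm5 are lower in every NP+tau liver than in every NP liver, and Gstm2, Gstk1 and Ugt2b5 higher, while NP replicate 1 is the farthest NP point in 4 of the 5 panels.

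The mu class held neighbours with opposite differences. Its 7 measured genes lie together on chromosome 3, and the enzymes are abundant in mouse liver, where they act on epoxides and other electrophiles. Gstm2 measured 9.82, 9.10 and 9.31 in NP+tau livers and 8.54, 8.45 and 8.77 in NP livers, without overlap, a difference of 0.82 (SE 0.23, unadjusted p = 0.00946). Gstm5 measured 8.04, 7.27 and 8.02 in NP+tau livers and 9.27, 8.44 and 8.22 in NP livers, again without overlap but in the other direction, a difference of −0.87 (SE 0.34, unadjusted p = 0.0397). Without NP replicate 1 the difference was 0.80 for Gstm2 and −0.56 for Gstm5. The marker lists named above separated the livers in the same direction as Gstm5, and their part in it was not tested. Gstm1 measured 13.11, 13.53 and 13.36 in NP+tau livers and 13.38, 13.52 and 13.53 in NP livers, which overlap (−0.14, SE 0.18, and 0.81 after setting one interquartile range). The difference of Gstm4 changed with NP+tau replicate 1, which is the compressed array and the NP+tau pup with high Xist. Gstm4 measured 8.10, 9.74 and 9.22 in NP+tau livers and 8.48, 8.68 and 8.70 in NP livers, a difference of 0.41 with all livers and 0.86 without NP+tau replicate 1. The part of compression or of sex in this change was not tested. The differences of Gstm3, Gstm6 and Gstm7 lay between −0.04 and 0.11. The probe sets of Gstm1 and Gstm3 carry a suffix that marks probes shared with other transcripts, so signal of related mu genes may enter them.

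Among the other soluble GST genes, Gstk1 had the most distinct values. It encodes the kappa enzyme of mitochondria and peroxisomes, and measured 11.73, 12.31 and 11.73 in NP+tau livers and 10.57, 11.29 and 11.62 in NP livers. The groups just failed to overlap, the difference was 0.77 (SE 0.32, unadjusted p = 0.0460), and it was 0.47 without NP replicate 1. Gstz1, the zeta enzyme that also acts in tyrosine breakdown, had a difference of 0.43 (SE 0.26), and Gsto1 of 0.02 (SE 0.24), both with overlap. The Gstz1 difference was 0.25 without NP replicate 1, 0.21 without NP+tau replicate 1 and 0.03 without both. In the theta class, whose enzymes act on small halogenated compounds, Gstt1 had a difference of 0.52 (SE 0.37), which was 0.16 without NP replicate 1 and 0.02 with both replicate 1 livers left out, and it measured 12.01, 11.21 and 11.95 in NP+tau livers and 10.47, 11.46 and 11.65 in NP livers. In the pi class, Gstp1 had 13.15, 13.72 and 13.39 in NP+tau livers and 14.00, 13.37 and 13.31 in NP livers, so the groups overlapped, and its difference of −0.14 (SE 0.26) changed sign without NP replicate 1 (0.079) and after setting one interquartile range (0.83). Mgst1, an abundant microsomal enzyme of liver, measured 14.27, 14.05 and 13.99 in NP+tau livers and 13.73, 13.88 and 13.97 in NP livers, without overlap but by a gap of only 0.02 log2 units.

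The alpha class had 3 members, and the difference of each was smaller without NP replicate 1. Gsta4, which clears the lipid peroxidation product 4-hydroxynonenal, measured 9.44, 9.62 and 9.72 in NP+tau livers and 11.56, 9.50 and 10.41 in NP livers. NP replicate 1 was 1.15 log2 units above the next liver, and the difference of −0.90 (SE 0.48) was −0.36 without it. Gsta3 had a difference of 0.33 (SE 0.25) and Gsta2 of −0.25 (SE 0.37), both with overlap, and without that liver they were 0.11 and −0.04. The other probe set of Gsta3 had a larger difference of 0.86 (SE 0.40), also with overlap.

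All UGT genes kept in liver had a positive difference. These were 9 of 9, with a median of 0.72, against 28 of 41 members and 45.8% of all probe sets. The 7 kept UGT2 genes lie in 1 cluster on chromosome 5 and the 2 UGT3 genes in 1 on chromosome 15. All were measured in the same 6 livers, so the 9 do not count as separate observations. Of the members, 4 reached the limit through an NP+tau liver alone (Ugt2b38, Sult4a1, Gstt4 and Sult2b1), which favours a positive sign, and none through an NP liver alone. Over the members that reached it in both groups, 8 of 8 UGT genes and 24 of 37 members were positive, against 39.5% of such probe sets. The median over the members was 0.19 and over all probe sets −0.04. Centring each array on its median, or setting all arrays to one median and interquartile range, moved the median of all probe sets to 0.07 and 0.11 and the positive members to 34 and 37 of 41, with 9 of 9 UGT genes positive under both. The 9 were also positive without NP replicate 1, where their median was 0.30, and with both replicate 1 livers left out, where it was 0.42. With Xist as a covariate 8 of 9 were positive, and Ugt2b35 was −0.55, against 0.14 without the covariate. Of the 9, the NP+tau livers lay above all NP livers in 3 (Ugt2b5, Ugt2b34 and Ugt2b36), and over all members in 7 against 2 below, where 5.73% of probe sets lay above without overlap and 9.11% below. One of the 7 is Sult4a1, kept only through NP+tau replicate 1. The probe sets of Ugt2b34 and Ugt3a1 carry the suffix of shared probes named above, and the other probe set of Ugt2b34 had a difference of 0.24 (SE 0.20) with overlap. Of the probe sets at an unadjusted p under 0.05, 14.9% were positive as deposited, 33.9% after centring and 45.7% after setting one interquartile range. Ugt2b5, one of the abundant glucuronidating enzymes of mouse liver, measured 12.24, 12.49 and 12.32 in NP+tau livers and 11.09, 11.74 and 12.05 in NP livers, a difference of 0.72 (SE 0.27, unadjusted p = 0.0307). Ugt2b36 measured 13.07, 12.78 and 12.81 in NP+tau livers and 11.71, 12.39 and 12.74 in NP livers, a difference of 0.61 (SE 0.28). In both genes NP replicate 1 was the lowest liver, and without it the differences were 0.45 for Ugt2b5 (unadjusted p = 0.0711) and 0.33 for Ugt2b36 (unadjusted p = 0.182). With both replicate 1 livers left out, they were 0.51 (unadjusted p = 0.0249) and 0.24 (unadjusted p = 0.204).

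The largest differences in the UGT and SULT families came with a wide spread among NP livers. Sult2a8, a bile acid sulfotransferase of mouse liver, measured 11.91, 10.43 and 11.51 in NP+tau livers and 6.53, 9.64 and 10.72 in NP livers, a difference of 2.32 (SE 1.02) and of 1.10 without NP replicate 1. Ugt3a2, which transfers sugars other than glucuronic acid, measured 10.70, 11.47 and 11.17 in NP+tau livers and 6.93, 10.53 and 11.28 in NP livers, a difference of 1.54 (SE 1.04) and of 0.21 without that liver. Its neighbour Ugt3a1 measured 6.99, 7.78 and 8.19 in NP+tau livers and 4.61, 6.78 and 7.62 in NP livers, a difference of 1.31 (SE 0.74) and of 0.45 without it. In each of these genes one NP liver was far below the rest while the other 2 lay within or near the NP+tau values. The other probe set of Ugt3a1 had a smaller gap, with 5.44, 6.87 and 7.43 in NP+tau livers and 4.90, 6.08 and 6.92 in NP livers. Its difference was 0.62 (SE 0.65). Ugt2a3 measured 10.22, 8.73 and 10.02 in NP+tau livers and 6.45, 8.76 and 9.45 in NP livers, and Ugt2b1 measured 10.66, 10.45 and 11.07 in NP+tau livers and 8.50, 9.996 and 10.99 in NP livers. Their differences of 1.44 and 0.90 came to 0.56 and 0.23 without NP replicate 1.

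**Figure D2:**
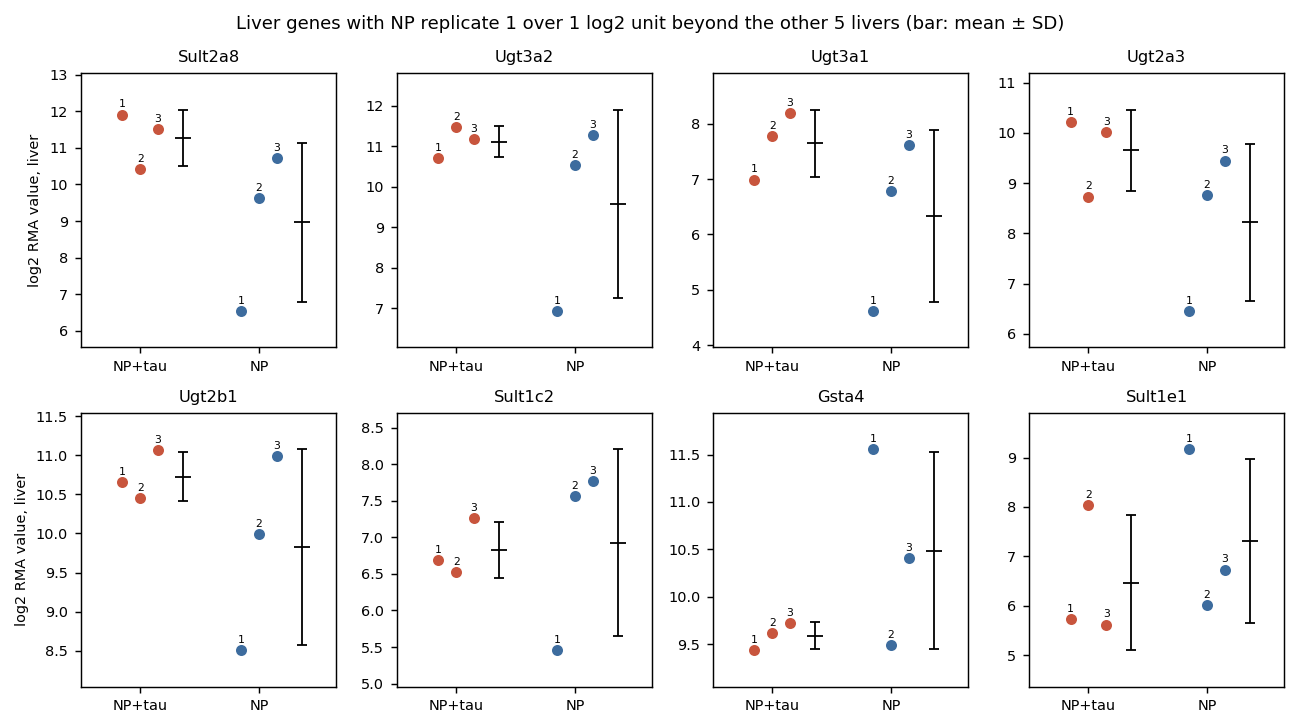
Log2 RMA values in liver of the 8 members in which NP replicate 1 lies more than 1 log2 unit below (Sult2a8, Ugt3a2, Ugt3a1, Ugt2a3, Ugt2b1, Sult1c2) or above (Gsta4, Sult1e1) all other 5 livers, NP+tau left and NP right, with points numbered by replicate and bars at mean ± SD (n = 3). The NP point numbered 1 stands alone in every panel, and the other NP points lie within or close to the NP+tau range in most.

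NP replicate 1 was the liver that set the members apart most. It held the lowest value of the 6 livers in 21 of 41 members and in 7 of 9 UGT genes, where it did so in 19% of all probe sets. It held the highest in 5 members, against 25.3% of probe sets. The compressed NP+tau replicate 1 held the highest value in 16 of 41 members and the lowest in 8, against 28.7% and 43% of probe sets. NP replicate 1 lay more than 1 log2 unit below all other livers in 6 members, against 0.963% of probe sets, and above them in 2, against 1.77%, and no other liver did so in any member. The 8 genes were picked for this gap, so it is a description of that liver. Sult1c2, whose enzyme sulfates phenols, had 6.69, 6.52 and 7.26 in NP+tau livers and 5.45, 7.56 and 7.77 in NP livers. Its difference was −0.11 with all livers and −0.84 without NP replicate 1. Sult1e1, the oestrogen sulfotransferase, had 5.73, 8.04 and 5.62 in NP+tau livers and 9.18, 6.02 and 6.73 in NP livers, and its difference of −0.84 (SE 0.95) came to 0.09 without that liver. The same liver had the lowest hepatocyte and the highest neutrophil and macrophage marker means, as given above. Its mean was 7.06 for genes with a female bias in mouse liver, against 8.30 to 8.63 in the other 5. For genes with a male bias its mean was also the lowest, at 6.07 against 6.17 to 6.57 in the other 5. The part of these in the members' values was not tested.

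The remaining SULT genes overlapped between the groups in liver except Sult4a1. Sult1a1, a phenol sulfotransferase, measured 12.80, 12.11 and 12.56 in NP+tau livers and 12.68, 12.38 and 12.53 in NP livers. Sult2a2, a sulfotransferase of hydroxysteroids, measured 13.83, 13.71 and 13.40 in NP+tau livers and 12.69, 13.08 and 13.77 in NP livers, a difference of 0.47 (SE 0.30) and of 0.22 without NP replicate 1. Sult4a1, a brain-enriched member, measured 4.94, 3.92 and 4.05 in NP+tau livers and 3.77, 3.84 and 3.69 in NP livers, and NP+tau replicate 1, the compressed array, was far above the rest (a difference of 0.54 with it and 0.23 without it). The other probe set of Sult4a1 did not reach the limit in liver and had a difference of 0.01, with overlap. Sult5a1 had a difference of 0.19 (SE 0.19). 5 members did not reach the limit in liver, namely Gsto2, Sult1c1, Sult3a1, Sult6b1 and Ugt2b37. Where a gene had several kept probe sets, they had the same sign in 6 of 9 genes in liver, the exceptions being Gsto1, Mgst3 and Sult1d1.

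**Figure D3:**
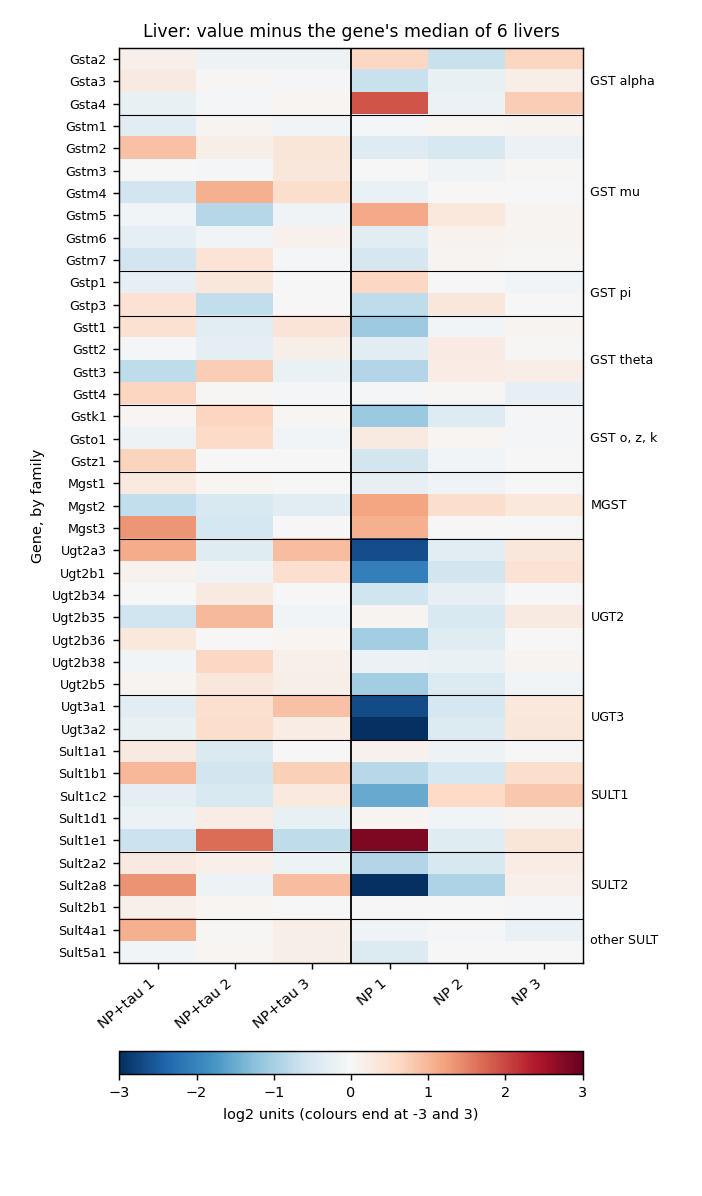
Each row is a member kept in liver, grouped by family, each column 1 liver (NP+tau left of the line, NP right), and the colour is its log2 value minus the gene's median over the 6 livers, with colours ending at −3 and 3. The column of NP replicate 1 is dark blue in Ugt2a3, Ugt2b1, Ugt3a1, Ugt3a2 and Sult2a8 and red in Gsta4 and Sult1e1, and most other cells are pale.

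The genes that supply the conjugating groups or handle the products were read from separate lists. Of 15 kept genes of glutathione supply, 8 had a positive and 7 a negative difference (median 0.01), with Gss, the glutathione synthetase, at −0.86 (SE 0.44) and Gclc, a subunit of glutamate-cysteine ligase, at −0.57 (SE 0.38). Of 7 genes of UDP-glucuronic acid supply, 6 had a negative difference (median −0.23), with Ugp2 at −0.23 (SE 0.17). The mean of these genes was 8.82, 9.65 and 9.36 in NP+tau livers and 9.76, 9.33 and 9.37 in NP livers. Its lowest value was thus that of the compressed NP+tau replicate 1. Of 13 genes of PAPS supply, 7 were positive and 6 negative, and Slc35b3, a PAPS transporter of the Golgi, was at −0.84 (SE 0.34, unadjusted p = 0.0428). Among 15 transporters, 9 were positive and 6 negative, and Slco2b1, an uptake carrier of sulfated steroids, measured 8.85, 8.92 and 9.07 in NP+tau livers and 7.60, 7.85 and 8.68 in NP livers (0.91, SE 0.29, unadjusted p = 0.0178). Of 5 kept genes in the list of enzymes that remove conjugates, 4 were negative (median −0.42). The beta-glucuronidase Gusb was at −1.03, and Ces2a, a carboxylesterase placed in that list, at −0.42. Of 17 other conjugating enzymes 13 were positive (median 0.21), with the glycine conjugating Glyat at 0.71 (SE 0.29), and of 18 regulators 10 were positive (median 0.02), with the nuclear receptor Nr1i2 at −0.47 (SE 0.20) and Esr1 at 0.91 (SE 0.40). Of all probe sets in liver, 45.8% were positive. NP+tau replicate 1 also had the lowest mean level in the lists of glutathione supply, PAPS supply, transporters and enzymes that remove conjugates. NP replicate 1 had the lowest in those of other conjugating enzymes and regulators. The part of these arrays in the differences was not tested. No gene of these lists passed after adjustment.

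Muscle had only part of the set. All 10 UGT genes stayed below the limit there, with values of 3.26 to 4.43, and 3 of 13 SULT genes were kept (Sult1a1, Sult4a1 and Sult5a1), against 17 of 23 GST and MGST genes. Of the 20 kept members, 13 had a negative difference, with a median of −0.13 against 0.01 over all probe sets, 51.8% of which were positive. Sult4a1 was kept through NP values alone, and of the 19 members that reached the limit in both groups 7 were positive, against 53.5% of such probe sets. Gstp1, the pi class enzyme that is the main GST of many tissues outside the liver, measured 12.14, 12.63 and 12.01 in NP+tau muscles and 11.54, 11.66 and 11.87 in NP muscles. The groups did not overlap, and the difference was 0.57 (SE 0.20, unadjusted p = 0.0244 and adjusted p = 0.707 by limma), a fold of 1.49. It was the one member of 20 with a positive difference at an unadjusted p under 0.05. Of the probe sets at that p, 60.8% were positive as deposited, 45.6% after centring and 32.1% after setting one interquartile range. Without NP replicate 1 the Gstp1 difference was 0.50 (unadjusted p = 0.0739).

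The microsomal enzymes and Gstm1 had values on the other side. Mgst1 measured 9.27, 9.37 and 9.91 in NP+tau muscles and 10.52, 10.09 and 9.68 in NP muscles, a difference of −0.58 (SE 0.27) in which NP+tau replicate 3 overlapped with NP replicate 3. Mgst3 measured 10.41, 10.46 and 9.74 in NP+tau muscles and 11.17, 10.09 and 10.56 in NP muscles, a difference of −0.40 (SE 0.32), and Mgst2 had −0.11 (SE 0.37). All 3 MGST genes had overlap between the groups. They were negative also under both other scalings, but Mgst2 was 0.21 without NP+tau replicate 1, and without NP replicate 1 Mgst1 was −0.37 and Mgst3 −0.12. Gstm1 measured 10.01, 10.34 and 9.59 in NP+tau muscles and 11, 10.25 and 10.20 in NP muscles, a difference of −0.50 (SE 0.28), and of −0.24 without NP replicate 1. Its other 3 probe sets gave −0.68 (unadjusted p = 0.0258 by limma), −0.49 and −0.48 (unadjusted p = 0.0197 by limma). In the last of these the groups did not overlap. By the probe set chosen for each gene, Gstm3 was the one member without overlap on the lower side. It measured 4.77, 5.02 and 4.68 in NP+tau muscles and 5.19, 5.26 and 5.04 in NP muscles (−0.34, SE 0.15). Of all probe sets 7.77% lay below and 7.33% above without overlap. Gstm5, the mu gene whose NP+tau values were lower in liver, had a difference of 0.01 (SE 0.20) in muscle, which turned to −0.04 after centring. The other kept members of muscle had differences of −0.32 (Sult4a1) to 0.16 (Gstm4). Adipocyte markers varied between the muscles as well, with means of 8.28, 7.88 and 8.78 in NP+tau muscles and 8.84, 8.81 and 8.42 in NP muscles. Adipoq, the hormone of fat cells, had a difference of −0.76 (SE 0.32). Of 16 macrophage markers kept in muscle 14 were negative (median −0.37), and of 4 Schwann cell markers 4 were (median −0.45). Of 9 endothelial markers 6 were positive (median 0.13). The part of fat or of these other cells in the members' values was not tested.

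**Figure D4:**
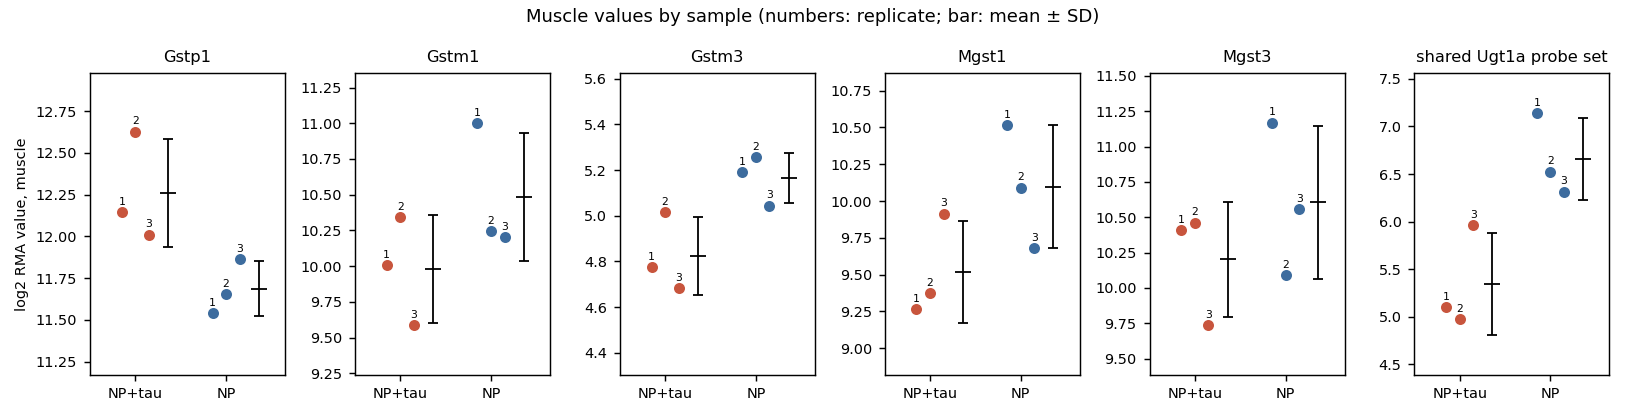
Log2 RMA values in muscle (vertical axis, its range differs between panels) of Gstp1, Gstm1, Gstm3, Mgst1, Mgst3 and a probe set shared by the Ugt1a genes, NP+tau left and NP right, with points numbered by replicate and bars at mean ± SD (n = 3). Gstp1 is higher and Gstm3 and the shared Ugt1a probe set lower in every NP+tau muscle than in every NP muscle, and the other 3 genes overlap.

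The UGT1 family has no member by the rule, because its probe sets carry the symbols of 8 Ugt1a genes each. Ugt1a transcripts differ in their first exon and share the rest. They were looked at after their values were seen. In liver the 3 shared probe sets were kept, with differences of 0.21 in each and overlapping groups. In muscle all 3 were lower in every NP+tau sample than in every NP sample. The one with the highest mean in muscle measured 5.10, 4.98 and 5.96 in NP+tau muscles and 7.14, 6.53 and 6.31 in NP muscles (−1.31, SE 0.32, unadjusted p = 0.00479). The second measured 5.47, 5.45 and 5.81 in NP+tau muscles and 6.68, 6.36 and 6.11 in NP muscles (−0.80, SE 0.20, unadjusted p = 0.00466), and the third had −0.54 (SE 0.18, unadjusted p = 0.0218). Adjusted p was 0.707 for each, and since they carry the same 8 symbols they count as 1 observation. The aryl hydrocarbon receptor Ahr, a known inducer of Ugt1a6, measured 5.01, 5.71 and 5.26 in NP+tau muscles and 5.98, 6.45 and 5.99 in NP muscles (−0.81, SE 0.23, unadjusted p = 0.00950). The part of Ahr, or of the adipocyte markers given above, in the Ugt1a values was not tested.

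Among the supply genes of muscle, Chac2, which breaks down glutathione, had a difference of 1.24 (SE 0.46, unadjusted p = 0.0312), Slc35d1, a carrier of UDP-glucuronic acid, of 0.63 (SE 0.23, unadjusted p = 0.0312) and Suox, the sulfite oxidase that makes sulfate, of 0.55 (SE 0.23, unadjusted p = 0.0487). Of the genes kept in each list, 8 of 15 were positive for glutathione supply, 4 of 6 for UDP-glucuronic acid supply and 9 of 12 for PAPS supply. Of 14 other conjugating enzymes, 6 were positive and 8 negative (median −0.08), with 2 positive and 0 negative at an unadjusted p under 0.05 by limma. Of all probe sets in muscle, 51.8% were positive, and 3.72% were positive at that p. Ephx2, the soluble epoxide hydrolase, measured 7.56, 7.32 and 7.53 in NP+tau muscles and 6.24, 6.86 and 6.77 in NP muscles, without overlap (0.85, SE 0.20, unadjusted p = 0.00369). As3mt, the methyltransferase of arsenic, measured 6.60, 6.62 and 6.70 in NP+tau muscles and 4.94, 5.42 and 6.20 in NP muscles, also without overlap (1.12, SE 0.31, unadjusted p = 0.00781). None of these genes passed after adjustment.

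The difference between the tissues was tested directly as the liver difference minus the muscle difference over the 25622 probe sets kept in both. No member passed after adjustment, where 0% of probe sets did, and the lowest adjusted p was 0.542. At an unadjusted p under 0.05 there were 4 of 20 members, against 7.8% of probe sets. Gstk1 had 1.07 (SE 0.39, unadjusted p = 0.0192), Mgst1 0.82 (SE 0.33, unadjusted p = 0.0282), Sult4a1 0.86 (SE 0.36, unadjusted p = 0.0352) and Mgst2 −1.07 (SE 0.48, unadjusted p = 0.0473). Sult4a1 was kept in liver only through NP+tau replicate 1 and in muscle only through NP values, so its positive difference between the tissues was in part set by the filter. The other probe set of Sult4a1 did not reach the limit in either tissue. Without NP replicate 1 of both tissues the count was 0.

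**Figure D5:**
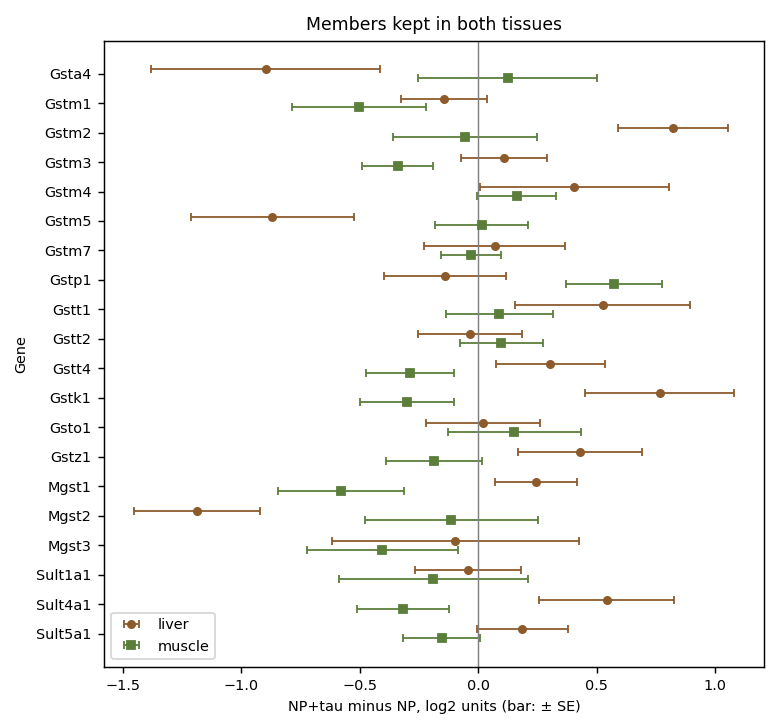
NP+tau minus NP in log2 units (horizontal axis, bars ± SE) for the 20 members kept in both tissues, with liver as circles above and muscle as squares below in each row. Gstk1, Mgst1 and Sult4a1 are positive in liver and negative in muscle, and Mgst2 lies at −1.19 in liver and −0.11 in muscle.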

How the data were processed

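Liver and muscle RNA of 3 NP+tau and 3 NP pups was measured on Affymetrix mouse arrays. The authors quantile normalised the arrays of each tissue and deposited log2 RMA values for 45101 probe sets, so levels were not compared between tissues, and probe set means served only to choose genes. Of these, 64 control probe sets were removed, and a probe set was kept if the highest of its 6 values reached the 35th percentile of these highest values (29274 in each tissue). The platform annotation given with the series named the genes, and 34945 probe sets had 1 symbol, 932 several and 9160 none. Within a tissue the 2 groups were compared with limma 3.58.1 (lmFit, eBayes; R 4.3.3), with Benjamini-Hochberg adjustment over the kept probe sets and a threshold of 0.05, and the script was tested on simulated data. The members, gene lists and alternatives were chosen with earlier results of these data known. Named genes are members at an unadjusted p under 0.05 in a tissue or in the tissue difference, the member of each family with the largest difference and with the highest mean, and up to 3 genes of each other list, while genes chosen for a gap of NP replicate 1 and the Ugt1a probe sets were added after their values were seen. Alternatives were other filters, variance models, array weights and scalings, Xist as a covariate, the replicate block, the mean of probe sets and leaving out samples. Replicates are separate pups, and 3 per group limit the precision.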

Additional observations from a re-analysis of the deposited data

How the results depend on the processing

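No member passed an adjusted p of 0.05 under any alternative except Xist as a covariate. That fit sets mostly the compressed NP+tau replicate 1, the NP+tau array with high Xist, against the NP livers. The parts of compression and of sex in its calls were not tested. With Xist, 4 liver members passed by limma (Gstm2 1.28, adjusted p = 0.0127, Mgst2 −1.47, 0.0328, Sult4a1 1.25, 0.0103, and Gstt4 0.80, 0.0291), but so did 9449 of 29274 probe sets (32.3%). Sult4a1 and Gstt4 reached the limit in liver only through NP+tau replicate 1, so their positive sign was in part set by the filter. With Xist as a covariate 1 member also passed in the tissue difference (Sult4a1, 1.42, adjusted p = 0.0358, where 3427 of 25622 probe sets passed), 1 liver member was lower and 0 muscle members higher at an unadjusted p under 0.05, the muscle median was 0.028, and Sult1a1 in liver (0.28) and in muscle (0.15) and Gstk1 in muscle (0.078) changed sign among the named genes. Over all kept members 8 of 41 changed sign with it in liver (also Gstm3, Gstm4, Gstm7, Gsto1, Gstt3, Mgst3 and Ugt2b35) and 3 of 20 in muscle (also Gstz1). At an unadjusted p under 0.05, array weights gave 5 higher liver members and 1 lower muscle member, and Gstp1 (0.11) and Sult1e1 (0.043) in liver and Sult1a1 (0.13) in muscle changed sign. Centring gave 5 higher and 1 lower member in liver and 1 lower in muscle, with Sult1a1 in liver at 0.070 and Gstm5 in muscle at −0.043. Over all 29274 probe sets of liver, centring gave 422 higher and 822 lower at that p, against 205 and 1167 as deposited. In muscle it gave 712 higher and 850 lower, against 1090 and 703 as deposited. Setting one median and interquartile range, added after seeing the compressed array, gave 1 lower member in liver and a median of 0.81, 0 higher and 3 lower members in muscle and a median of −0.25, with Gstm1 (0.81), Gstp1 (0.83) and Sult1a1 (0.87) in liver and Gstm5 (−0.31) and Gsto1 (−0.13) in muscle of changed sign. Over all probe sets this scaling gave 486 higher and 577 lower in liver, and 605 higher and 1279 lower in muscle. 1 lower muscle member came without a filter, with an intensity trend and with the mean of all probe sets, and no filter gave 7 members in the tissue difference. With both replicate 1 livers left out, Gstp1 was 0.22 and Sult1e1 0.46. Leaving out each sample in turn gave 1 to 9 higher and 1 to 3 lower liver members (9 without NP replicate 3), 0 to 1 higher and 0 to 2 lower muscle members, 0 to 6 members in the tissue difference, and medians of 0.16 to 0.29 in liver and −0.23 to −0.09 in muscle. Over the same samples left out, differences of named genes that changed sign ran in liver from −0.29 to 0.079 (Gstp1), −0.20 to 0.15 (Sult1a1) and −1.63 to 0.090 (Sult1e1), and in muscle from −0.18 to 0.50 (Gsta4), −0.10 to 0.20 (Gstm5), −0.090 to 0.38 (Gsto1), −0.11 to 0.23 (Gstt1) and −0.40 to 0.22 (Sult1a1). Over all kept members, 7 liver and 4 muscle members changed sign without NP replicate 1, 2 and 3 without NP+tau replicate 1, and 4 and 5 without both. The cause of these changes was not tested unless stated. Where no count over all probe sets is given, member counts at an unadjusted p have no array-wide share to be read against. Equal replicate numbers did not pair the samples (correlations of deviations 0.02, −0.11 and 0.11 in liver and −0.21, −0.27 and 0.33 in muscle), and the replicate block gave 4 higher and 2 lower members in liver, 1 and 0 in muscle, and, with the pup as block over both tissues, 8 in the tissue difference. That block assumes that equal numbers in liver and muscle are the same pup, which the labels do not say (correlations of deviations −0.042 to 0.24). With 3 arrays per group and 4 residual degrees of freedom per tissue, differences as large as that of Sult2a8 did not pass, and genes near the limit of the array have little signal to change.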

Other observations

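A probe set shared by Gsta1, Gsta2 and Gm3776, and so of no single gene, measured 10.07, 10.42 and 10.26 in NP+tau livers and 12.87, 9.74 and 11.16 in NP livers, a difference of −1.01 (SE 0.70) with overlap between the groups. NP replicate 1 was the highest liver there, as it was for Gsta4 of the same class. The probe set shared by Ugt2a1 and Ugt2a2 did not reach the limit in either tissue.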
